A study of Mus musculus with 4 samples.

Results

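The variable segments of the immunoglobulin kappa light chain (Igkv) were taken as every gene symbol that began with Igkv and had at least 1 unique molecular identifier (UMI) over the 4 libraries, which gave 131 of 160 such symbols among 31053 genes. The data came from bone marrow mononuclear cells of C57BL/6 mice, flushed from femur and tibia and separated on Ficoll, and were read from the 5′ end of the transcripts with 1 library per mouse. Of the 4 mice, 2 were TLR9-/- and 2 were wild type (WT), they were profiled in 2 experiments with 1 mouse of each genotype, and the genotypes were bred in separate cages. TLR9 is a receptor of endosomes that binds DNA rich in unmethylated CpG, and B cells express it. The sources used here gave no age for these mice. After filtering, the TLR9-/- libraries held 10781 and 8918 cells and the WT libraries held 10573 and 8895 cells, and they carried 133621, 129513, 115875 and 86061 Igkv UMIs in that order.

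A kappa chain is built when the RAG recombinase joins 1 V segment to 1 J segment in a small pre-B cell, which has already assembled a heavy chain and lost its surrogate light chain. A cell whose join gives no functional chain, or an autoreactive one, can recombine again on the same allele or on the other one, and cells that display a tolerated receptor become immature and then mature B cells. Unrearranged V segments can also be transcribed at a low level. The name of a segment gives its family and then its place, and the second number rises with the distance from the J segments.

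Stages were set without kappa or lambda genes. Surrogate light chain genes (Igll1, Vpreb1, Vpreb2) set pro-B and large pre-B cells, and Rag1, Rag2 or Il7r without Ms4a1 or Ighd set pre-B cells. Ms4a1 without Ighd set immature B cells, and Ighd without Rag1 or Rag2 set mature B cells. Jchain with Xbp1, Mzb1 and a further secretory gene set plasma cells. Ighd was also detected in 11.6% to 21.4% of surrogate light chain cells of a library. Ms4a1 was detected in 50.7% to 67.1% of mature B cells. B lineage cells that passed none of these gates were kept only where all stages before the plasma stage were summed. Marker genes outside the gates did not separate all neighbouring stages. Vpreb3, a pre-B cell gene, was detected in 99.1% to 100% of surrogate light chain cells of a library, 98.6% to 100% of pre-B cells, 72.4% to 82.8% of immature and 55.8% to 64.1% of mature B cells, so it does not separate the first 2 of these stages. Cd74, of antigen presentation, was found in 35.5% to 44.8% of pre-B cells, 91.9% to 94.9% of immature and 87.5% to 96.2% of mature B cells. Fcer2a, a gene of mature B cells, was found in 8.33% to 19.1% of immature and 13.8% to 41.4% of mature B cells, which overlap. Prdm1, the regulator of plasma cells, was found in 27.0% to 57.1% of plasma cells and in at most 1.06% of pre-B cells. The T cell gene Cd3d was found in at most 0.556% of immature B cells. UMIs of S100a8, a neutrophil gene, were present in 10.6% to 64.8% of immature B cells depending on the library, and of Hbb-bs, a globin gene, in 10.1% to 46.4%, and their part in the results was not tested.

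All 100 Igkv symbols annotated as V genes had UMIs, and they held 464839 UMIs or 99.8% of the total. The members also included 31 of 60 annotated pseudogenes, which held 895 UMIs. Igkv6-15 had the most UMIs (49683), followed by Igkv1-117 (33852), Igkv10-96 (26843) and Igkv1-135 (20968). Of the Igkv6-15 UMIs, 45180 lay in 6 plasma cells, and its UMIs were 12248 and 35316 in TLR9-/- mice against 1141 and 978 in WT mice. Among the V genes, Igkv1-131 had the fewest, with 4 UMIs. The locus lies on chromosome 6 (GRCm38), from Igkv2-137 at the far end (chr6:67555497-67556216, plus strand) to Igkv3-1 (chr6:70703578-70704177, plus strand), which ends 18.4 kb before Igkj1. The far end lay 3166 kb from Igkj1. Of the 100 V genes, 38 lay on the plus strand, as Igkj1 does, and 62 on the minus strand.

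The segments on which the results below turn are shown as the last 280 coding bases of the germline V segment, 5′ to 3′, from GENCODE vM21 on GRCm38, with capitals from the last in-frame cysteine codon to the end of the segment, the part that opens the third complementarity-determining region. The first set holds the segments used by most B cells or carrying most plasma cell UMIs. Igkv1-117 lies at chr6:68121046-68121827 (plus strand), Igkv1-135 at chr6:67609713-67610508 (plus strand), Igkv10-96 at chr6:68631963-68632442 (minus strand) and Igkv6-15 at chr6:70406469-70406992 (minus strand).
Igkv1-117: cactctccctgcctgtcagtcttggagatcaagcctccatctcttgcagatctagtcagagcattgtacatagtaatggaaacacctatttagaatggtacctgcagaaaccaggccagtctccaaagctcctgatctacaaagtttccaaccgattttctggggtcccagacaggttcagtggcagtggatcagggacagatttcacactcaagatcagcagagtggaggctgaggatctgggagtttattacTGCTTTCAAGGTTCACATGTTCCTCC
Igkv1-135: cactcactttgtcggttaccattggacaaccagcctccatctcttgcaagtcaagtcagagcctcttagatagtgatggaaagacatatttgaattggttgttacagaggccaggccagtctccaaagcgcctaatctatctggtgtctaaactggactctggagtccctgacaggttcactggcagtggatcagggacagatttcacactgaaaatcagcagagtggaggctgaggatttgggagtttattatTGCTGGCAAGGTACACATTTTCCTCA
Igkv10-96: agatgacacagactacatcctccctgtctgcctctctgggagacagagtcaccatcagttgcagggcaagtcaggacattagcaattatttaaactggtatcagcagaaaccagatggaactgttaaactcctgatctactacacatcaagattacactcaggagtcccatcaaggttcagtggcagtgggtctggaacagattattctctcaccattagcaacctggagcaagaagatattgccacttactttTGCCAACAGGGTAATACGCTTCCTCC
Igkv6-15: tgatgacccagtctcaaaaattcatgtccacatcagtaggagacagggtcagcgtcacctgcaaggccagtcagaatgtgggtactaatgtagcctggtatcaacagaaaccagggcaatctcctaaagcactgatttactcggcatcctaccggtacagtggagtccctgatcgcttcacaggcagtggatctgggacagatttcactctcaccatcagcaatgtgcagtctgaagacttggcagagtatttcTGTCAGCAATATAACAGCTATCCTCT

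The second set holds the segments seen in most surrogate light chain cells. Igkv9-124 lies at chr6:67942074-67942540, Igkv1-88 at chr6:68862265-68863031 and Igkv12-89 at chr6:68834846-68835307, all on the minus strand.
Igkv9-124: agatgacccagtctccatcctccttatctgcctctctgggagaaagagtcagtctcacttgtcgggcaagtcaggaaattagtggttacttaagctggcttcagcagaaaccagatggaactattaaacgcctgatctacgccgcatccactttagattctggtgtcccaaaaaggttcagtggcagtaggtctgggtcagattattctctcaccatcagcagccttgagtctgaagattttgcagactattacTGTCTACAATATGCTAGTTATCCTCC
Igkv1-88: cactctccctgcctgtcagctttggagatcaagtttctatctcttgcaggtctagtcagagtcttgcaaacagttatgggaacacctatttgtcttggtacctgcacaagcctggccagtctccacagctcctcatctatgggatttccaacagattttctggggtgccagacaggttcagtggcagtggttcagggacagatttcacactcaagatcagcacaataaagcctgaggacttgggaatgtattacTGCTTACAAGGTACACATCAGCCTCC
Igkv12-89: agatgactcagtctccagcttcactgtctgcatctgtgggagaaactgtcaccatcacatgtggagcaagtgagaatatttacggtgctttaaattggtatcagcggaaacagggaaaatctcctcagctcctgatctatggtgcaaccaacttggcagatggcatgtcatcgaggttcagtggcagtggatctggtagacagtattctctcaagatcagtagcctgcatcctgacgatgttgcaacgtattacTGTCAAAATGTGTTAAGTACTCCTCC

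Over these last 280 bases, 72 of the 100 V genes had another V gene with at least 90% identity, 46 had one with at least 95% and 6 had one with at least 98%. Reads of such neighbours may be split between them, and somatic mutation in plasma cells was not resolved. Igkv9-124 was 95.7% identical to Igkv9-120, whereas Igkv1-88 and Igkv12-89 had no neighbour above 85.0% and 85.7%.

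Igkv transcripts made up a larger share of the RNA at each stage up to the immature B cell. In surrogate light chain cells, Igkv UMIs were 0.0149% and 0.0192% of all UMIs in TLR9-/- mice against 0.0276% and 0.0158% in WT mice. In pre-B cells they were 0.162% and 0.157% against 0.145% and 0.0866%. In immature B cells they were 1.06% and 1.04% against 0.955% and 0.743%, and in mature B cells 0.776% and 0.761% against 0.613% and 0.556%. Plasma cells stood far above, with 26.6% and 30.5% against 32.5% and 27.7%. Cells with no UMI of Cd79a, Cd79b or Jchain held 0.00168% and 0.000361% against 0.00214% and 0.00112%, which was taken as the background.

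**Figure D1:**
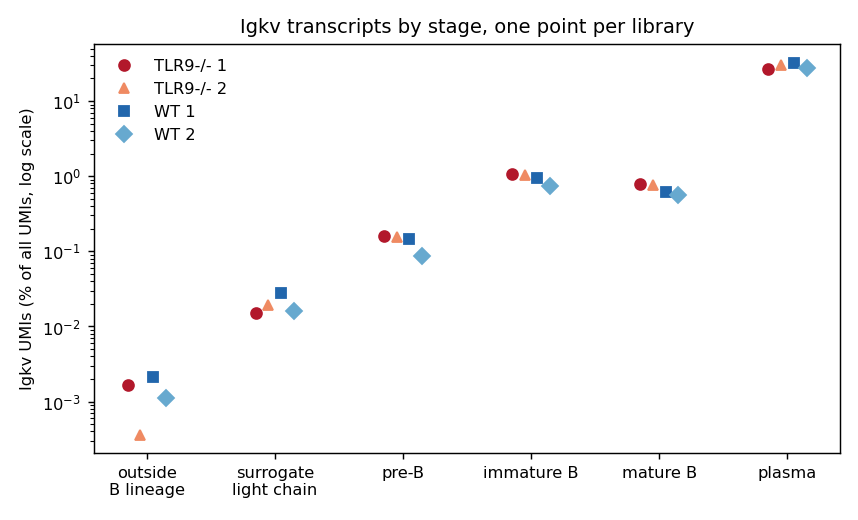
Igkv UMIs as a percent of all UMIs (vertical axis, log scale) in cells outside the B lineage and in 5 B lineage stages, with 1 point per library. Each stage up to the immature B cell lies above the one before it in all 4 libraries, and plasma cells lie between 26.6% and 32.5%.

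In pre-B, immature and mature B cells both TLR9-/- libraries lay above both WT libraries. With 2 mice per genotype an exact two-sided permutation test cannot give a p below 0.333, so this order cannot be told from the spread between mice by that test. Fewer cells with a kappa transcript and fewer transcripts per cell both lower such a percentage. The median Igkv UMI count of an immature B cell was 14 and 14.5 in TLR9-/- mice against 12 and 10 in WT mice, where the median total was 1125 and 1617 against 1138 and 1382 UMIs.

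Igkc is the constant region that a spliced kappa transcript carries. There were 0.985 and 0.889 Igkv UMIs per Igkc UMI in pre-B cells of TLR9-/- mice and 0.933 and 0.565 in those of WT mice, and 4.47 and 4.58 against 4.18 and 2.42 in immature B cells. No UMI was assigned to Igkj1 to Igkj5, so the J segments could not be used.

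A cell was assigned to a segment when it held at least 2 UMIs of it and these were over 50% of the Igkv UMIs of the cell. This assigned 30.7% and 35.4% of pre-B cells in TLR9-/- mice against 26.2% and 23.6% in WT mice. Among immature B cells it assigned 84.2% and 86.7% against 86.5% and 83.7%. Among mature B cells it assigned 77.5% and 86.8% against 76.6% and 76.9%.

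In immature B cells, the cells were spread over many segments. The segment used most was Igkv1-135, with 90 of 1873 assigned cells, followed by Igkv10-96 with 84, Igkv1-117 with 80, Igkv1-110 with 77 and Igkv14-111 with 60. In mature B cells the order was Igkv10-96 with 126 of 2651 cells, Igkv1-117 with 123, Igkv1-135 with 121, Igkv1-110 with 91 and Igkv6-17 with 89. The mean shares of the 4 libraries in these stages correlated across segments with r = 0.97 (n = 103 segments). Both stages came from the same libraries, and segments are not independent replicates.

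The effective number of segments is the number of equally used segments that would give the same chance of drawing a pair alike. It was taken as the inverse Simpson index over pairs of distinct cells, which can exceed the number of segments seen. The correction for cell number applies to the chance of a pair alike and not to its inverse. Values from few cells can therefore be biased. The effective number was 46.5 and 50.9 in immature B cells of TLR9-/- mice and 46.5 and 42.5 in those of WT mice. In mature B cells it was 46.8 and 49.8 against 42.7 and 44.5, that is 48.3 ± 2.16 (SD, n = 2) against 43.6 ± 1.24 (SD, n = 2). In pre-B cells it was 41.6 and 37.0 against 44.0 and 36.9. The genotypes overlapped in pre-B cells, and touched in immature B cells, where TLR9-/- 1 and WT 1 had the same value to 3 digits. By shares of UMIs the mature values were 33.0 and 39.1 against 31.5 and 37.2, so the genotypes overlapped. A stricter rule, with at least 5 UMIs and over 80% of the Igkv UMIs, gave 39.4 and 44.7 against 36.6 and 39.2 there. In pre-B cells the stricter rule gave 27.9 and 21.3 against 28.9 and 35.2, with the lower values in TLR9-/- mice. In surrogate light chain cells the first rule gave 7.17 and 5.97 against 20.3 and 13.1, from 44 and 34 against 62 and 51 assigned cells. Igkv9-124 held 36.4% and 41.2% against 14.5% and 25.5% of these cells. The stricter rule gave 33 in TLR9-/- 1 against 21.4 and 50 in WT mice, and no value in TLR9-/- 2. Without marked doublets the first rule gave 6.89 and 5.97 against 18.6 and 6.54 there, so the genotypes overlapped. In plasma cells the first rule gave 29.75 and 22.75 against 15.8 and 19.5, from 35 and 14 against 25 and 13 cells. Only 22 and 11 against 13 and 10 segments were seen there, so these values rest on few cells that share a segment. Family 1 held a mean of 14.6% of assigned mature B cells, family 6 held 13.6%, family 3 held 11.6% and family 4 held 11.1%.

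**Figure D2:**
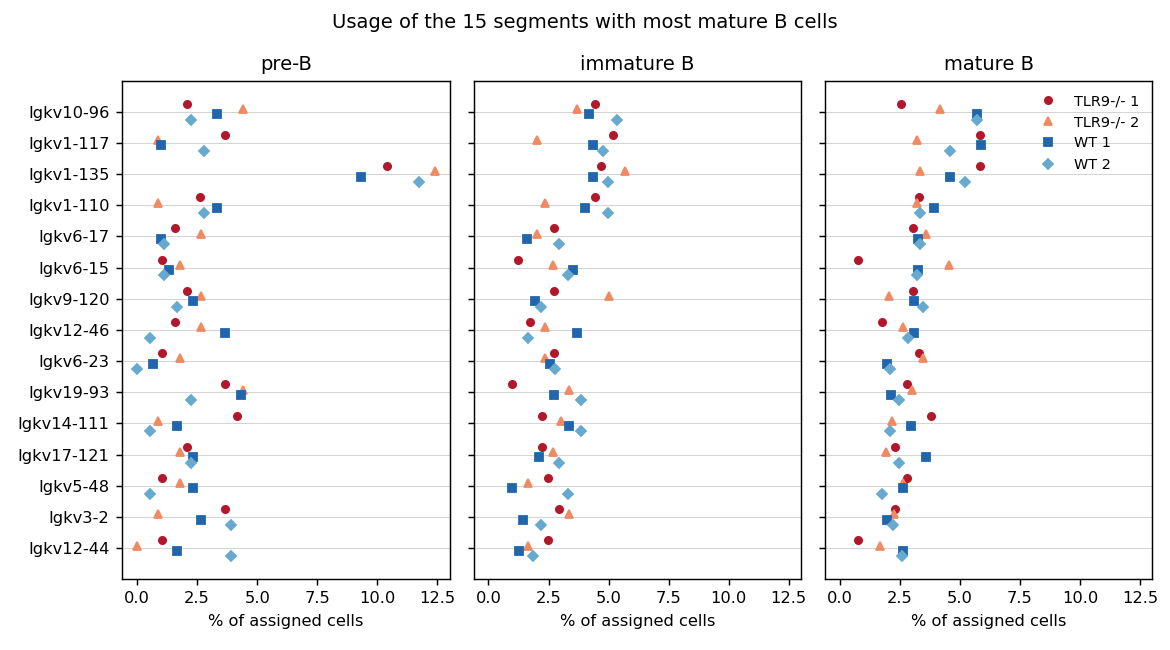
Share of assigned cells (horizontal axis, percent) in pre-B, immature B and mature B cells for the 15 segments with the most mature B cells, with 1 point per library. Igkv1-135 reaches 9.30% to 12.4% in pre-B cells and 4.33% to 5.67% in immature B cells.

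Pre-B cells had another order. Igkv1-135 was assigned to 83 of 785 pre-B cells, and its share was 10.4% and 12.4% in TLR9-/- mice against 9.30% and 11.7% in WT mice. In immature B cells its share was 4.68% and 5.67% against 4.33% and 4.96%, lower in each of the 4 libraries. Igkv8-16 was assigned to 22 pre-B cells, 6 immature and 8 mature B cells, and its mean share was 3.05%, 0.311% and 0.365% in that order. Igkv1-117 went the other way, with a mean share of 2.08% in pre-B cells and 4.07% in immature B cells, though its share in TLR9-/- 2 was 0.885% and 2.00%. Pre-B cells hold fewer Igkv UMIs, so a smaller part of them was assigned.

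Pseudogenes, which cannot give a functional chain, were also assigned to different shares of cells by stage. No UMI was assigned to a J segment, so an assignment does not show that the segment was joined. Pseudogenes were assigned to 3 of 191 surrogate light chain cells, all in TLR9-/- 2, or 1.57% (95% exact binomial interval 0.325% to 4.52%). They were assigned to 23 of 785 pre-B cells, or 2.93% (1.87% to 4.36%), of which 6 were assigned to Igkv12-40. The counts were 8 of 192 and 4 of 113 cells in TLR9-/- mice against 8 of 301 and 3 of 179 in WT mice. In immature B cells they were assigned to 4 of 1873 cells, or 0.214% (0.0582% to 0.546%), and in mature B cells to 9 of 2651 cells, or 0.339% (0.155% to 0.643%). The share was higher in pre-B than in immature B cells in all 4 libraries. None of 87 assigned plasma cells was assigned to one, with an exact upper bound of 4.15%. These intervals cover counting error only.

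The V genes were split by distance from Igkj1 into 34 near segments (18.4 to 822 kb), 33 middle and 33 far ones (1915 to 3166 kb). The far segments held 41.1% and 42.0% of assigned immature B cells in TLR9-/- mice against 43.7% and 46.0% in WT mice. In mature B cells they held 44.1% and 35.5% against 45.3% and 45.1%, and TLR9-/- 2 had the lowest value. The near segments held 36.5% and 37.4% of mature B cells against 31.4% and 33.2%, which did not overlap between the genotypes. Segments on the strand of Igkj1 held 53.9% and 46.3% of immature B cells against 45.3% and 49.4%.

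The level of a segment in the cells assigned to it differed between segments. Over the 25 segments with at least 5 mature B cells in each library, the median UMI count per cell, averaged over the libraries, ran from 4.12 for Igkv4-55 and Igkv8-30 to 19.2 for Igkv1-117. Igkv1-117 had medians of 20, 21, 19 and 17, and Igkv8-30 had 3, 6, 3.5 and 4 in TLR9-/- 1, TLR9-/- 2, WT 1 and WT 2. The order was alike in immature B cells, where Igkv9-120 had 28.6, Igkv1-117 had 28.5, Igkv8-30 had 6.75 and Igkv4-59 had 5.50. A share of UMIs therefore weights segments differently from a share of cells. These counts are not per length, and capture at the 5′ end may differ between segments.

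Surrogate light chain cells carried few Igkv UMIs. Igkv9-124 was detected in 235 of these cells, Igkv1-88 in 113 and Igkv12-89 in 93. Of the cells with Igkv9-124, 71.9% held exactly 1 UMI of it, and for Igkv1-88 and Igkv12-89 this was 86.7% and 94.6%. Igkv1-135 was detected in 26 cells, 30.8% of them with 1 UMI, and had 5.92 UMIs per such cell against 1.43 for Igkv9-124. The 3 segments were spread over cells and Igkv1-135 was concentrated in few. Pre-B cells shared much of this. Igkv9-124 was detected in 200 of them, 90% with exactly 1 UMI, and Igkv12-89 in 86, 93.0% with 1 UMI. Igkv1-88 was detected in 41 pre-B cells, 68.3% with 1 UMI.

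**Figure D3:**
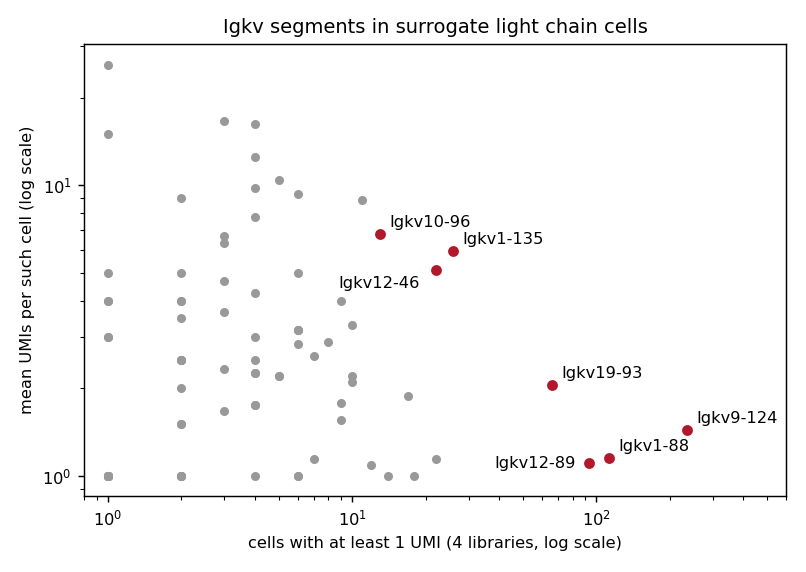
Each point (named ones in red) is an Igkv segment in the surrogate light chain cells of the 4 libraries, with the number of cells holding at least 1 UMI (horizontal axis, log scale) and the mean UMI count of those cells (vertical axis, log scale). Igkv9-124, Igkv1-88 and Igkv12-89 lie at the lower right, with 235, 113 and 93 cells and 1.43, 1.15 and 1.11 UMIs per cell.

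Igkv9-124 was found in 13.02% and 17.6% of surrogate light chain cells of TLR9-/- mice and 9.61% and 8.48% of those of WT mice, whose median total UMIs were 3938 and 6771 against 2835 and 4609. It was found in 9.42% and 7.84% against 6.79% and 5.02% of pre-B cells. In cells outside the B lineage, with medians of 2922 and 4030 against 2194 and 3154 UMIs, it was found in 0.033% and none of the TLR9-/- cells and in none and 0.109% of the WT cells. Igkv12-89 was found in 5.42% and 5.43% against 3.73% and 3.72% of surrogate light chain cells and in at most 0.0373% of cells outside the B lineage. In pre-B cells its order was reversed, with 2.88% and 1.25% in TLR9-/- mice against 3.66% and 2.91% in WT mice. Igkv1-88 was found in 7.41% and 8.60% against 4.45% and 3.27% of surrogate light chain cells, and outside the B lineage in 0.826% of cells of TLR9-/- 1 and at most 0.0546% in the other libraries. In pre-B cells Igkv1-88 was found in 1.92% and 2.19% against 1.04% and 1.32%. Igkv12-89 kept this spread later, since 87.2% of the 86 immature B cells with a UMI of it held exactly 1.

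The step from surrogate light chain to pre-B cells was tested on UMIs summed per library and stage, with the library as a block. By edgeR's quasi-likelihood test with Benjamini-Hochberg adjustment over all genes, 27 of 28 Igkv segments tested rose and none fell, where 22.4% of all genes tested rose and 23.4% fell. The median log2 fold change was 2.84, against 0.01 over all genes. The filter on low counts kept only these 28 segments, some of them through the pre-B libraries alone, so their count and median are partly set by it. With no filter, 75 of the 116 segments with a UMI in either stage rose and none fell, with a median of 2.88. The share of all genes called with no filter was not counted, so this count has no background beside it. Igkv3-12 rose most (6.27 ± 0.40, SE), from 1, 0, 0 and 4 UMIs to 30, 130, 48 and 33. Each SE of a log2 fold change is approximate, namely its absolute value divided by the square root of the F statistic of the test. The 3 segments with most surrogate light chain cells changed least, but they were picked in the baseline stage of this change, which favours small values. Igkv12-89 rose by 0.67 ± 0.26 (adjusted p = 0.0425, and 0.0792 with stricter gates). Igkv9-124 rose by 0.54 ± 0.17 (adjusted p = 0.0147), and 1 pre-B cell held 31 of its 278 pre-B UMIs. Igkv1-88 had 0.22 ± 0.21 on the same scale (adjusted p = 0.423).

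From pre-B to immature B cells 59 of 64 Igkv segments tested rose and none fell by the same test, where 39.6% of all genes tested changed and 19.8% rose. The median log2 fold change was 3.05, against 0.01 over all genes. Here too the filter on low counts kept some segments through the later stage alone, so count, median and ranking are partly set by it. The segments with the largest changes were Igkv3-1 (4.89 ± 0.44), the segment nearest to the J segments, Igkv1-117 (4.83 ± 0.19), Igkv15-103 (4.58 ± 0.30), Igkv14-126 (4.55 ± 0.25) and Igkv6-20 (4.46 ± 0.23). Igkv3-1 went from 8, 0, 0 and 1 UMIs in 3 pre-B cells to 52, 21, 59 and 36 UMIs in immature B cells. Igkv1-117 went from 62, 8, 31 and 29 UMIs in pre-B cells to 585, 244, 778 and 585 in immature B cells.

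The segments with the smallest changes were Igkv8-16 (-0.004 ± 0.38, adjusted p = 0.995), Igkv10-95 (0.13 ± 0.50, adjusted p = 0.870), Igkv9-129 (0.13 ± 0.62, adjusted p = 0.892), Igkv9-123 (0.68 ± 0.67, adjusted p = 0.453) and Igkv1-133 (0.70 ± 0.26, adjusted p = 0.0430), of which Igkv1-133 alone passed the test, and it did not without TLR9-/- 1, TLR9-/- 2 or WT 2 (adjusted p up to 0.263). Igkv8-16 had 25, 44, 46 and 33 UMIs in pre-B cells and 34, 5, 38 and 15 in immature B cells, so libraries differed in direction. Igkc rose by 0.68 ± 0.09. Rag1 and Rag2 fell by 3.71 and 4.52 on the log2 scale, but both genes define the pre-B gate.

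**Figure D4:**
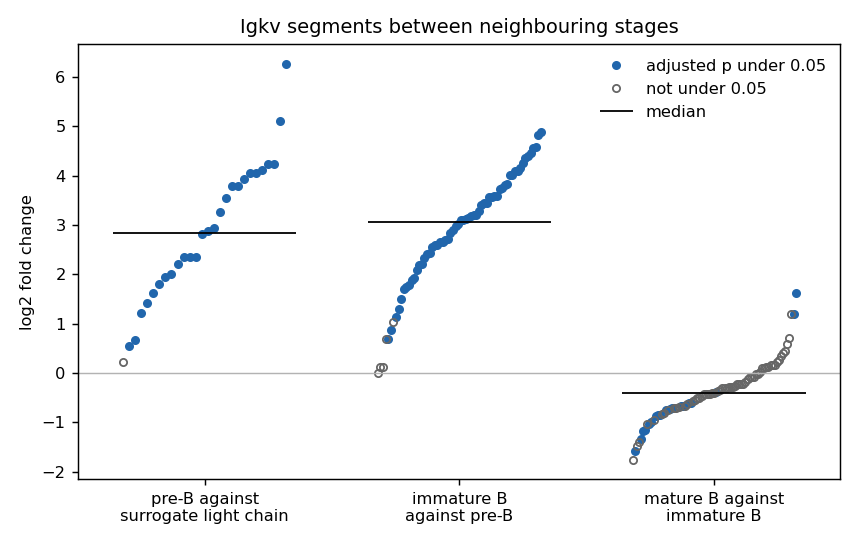
Log2 fold changes of Igkv segments (vertical axis) between neighbouring stages, each point a segment and each bar the median, with filled points past an adjusted p of 0.05. The medians are 2.84, 3.05 and -0.41, and all but 1, 5 and 60 points of the steps are filled.

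From immature to mature B cells 19 of 79 segments tested changed, 2 up and 17 down, where 5.35% of all genes tested changed, 2.93% up and 2.42% down. The median log2 fold change was -0.41, against 0.00425 over all genes. Among those that fell, the largest changes were those of Igkv12-89 (-1.58 ± 0.19), Igkv4-50 (-1.34 ± 0.31) and Igkv8-27 (-1.17 ± 0.18). Igkv4-50 was not called without TLR9-/- 1 (adjusted p = 0.167) or TLR9-/- 2 (adjusted p = 0.118). Igkv2-137, at the far end of the locus, fell by 1.03 on the log2 scale, while Igkv3-1, at the near end, had 0.35 ± 0.22 (adjusted p = 0.467). Igkv12-89 went from 52, 102, 109 and 83 UMIs to 37, 71, 37 and 39, and 1 immature B cell held 90 of its UMIs. Igkv4-53 (1.62 ± 0.40) and Igkv8-21 (1.20 ± 0.28) rose. DESeq2 and stricter gates each gave 9 lower and 0 higher, with adjusted p of 0.0595 and 0.0562 for Igkv8-21, and Igkv4-53 was not called without TLR9-/- 1, TLR9-/- 2 or WT 1 (adjusted p up to 0.194).

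The change between stages was also compared between the genotypes. From pre-B to immature B cells it differed for 10 of 64 segments, 7 with a more positive and 3 with a more negative change in TLR9-/- mice, where 0.576% of all genes differed (0.25% more positive, 0.325% more negative). From immature to mature B cells it differed for 1 of 79 segments, Igkv8-18, with a more negative change in TLR9-/- mice, where 0.0749% of all genes did (0.0624% more positive, 0.0125% more negative). Their values are given among the additional observations.

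Between the genotypes, 1 of 77 Igkv segments tested in immature B cells differed, where 0.381% of all genes tested did (0.132% higher, 0.25% lower). Igkv4-50 had 70 and 49 UMIs in TLR9-/- mice against 34 and 23 in WT mice, or 95.4 and 73.8 against 31.0 and 19.0 CPM (UMIs scaled to a common library total), and the groups did not overlap. Its log2 fold change was 1.76 ± 0.30 (adjusted p = 0.0286), and these UMIs lay in 9, 8, 9 and 3 cells. It was not called by DESeq2 (adjusted p = 0.185), which called 1 other segment, or with stricter gates (adjusted p = 0.418). In mature B cells its log2 fold change was -0.07 ± 0.55 (adjusted p = 1).

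None of 96 segments tested differed over all B lineage cells before the plasma stage, none of 53 in pre-B cells, none of 81 in mature B cells and none of 23 in plasma cells by edgeR, where 0.225%, 0.177%, 0.17% and 0% of all genes did. In pre-B cells 0.0945% of all genes were higher and 0.0827% lower in TLR9-/- mice, and in mature B cells 0.0792% and 0.0906%. Without adjustment 25, 17, 24 and 5 of them had p under 0.05 by edgeR. Over all genes tested 651 of 11108, 493 of 8464, 561 of 8834 and 56 of 1161 did. DESeq2 called 3, 2, 3 and 15 segments, and its share over all genes was not counted. Leaving out a library gave 0 to 35 calls over all B lineage cells (35 without TLR9-/- 1 and 9 without TLR9-/- 2), 6 to 21 in pre-B cells, 5 to 12 in immature and 1 to 16 in mature B cells. Such a fit leaves 1 genotype with a single mouse, which is assumed to vary like the other genotype, so these counts do not show on which library a call rests.

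The balance of the segments was toward TLR9-/-. Over all B lineage cells before the plasma stage 82 of 96 segments had a positive log2 fold change, with a median of 0.46 against -0.000696 over all genes, and all 25 segments with unadjusted p under 0.05 were higher in TLR9-/-. The median was 0.47 in pre-B, 0.37 in immature and 0.42 in mature B cells. In these stages 33, 55 and 60 segments were positive and 20, 22 and 21 negative. With unadjusted p under 0.05 by edgeR, 11, 13 and 22 were higher in TLR9-/- and 6, 4 and 2 lower. The sum over stages mixes them. Surrogate light chain cells were 5.13% and 2.48% of all cells in TLR9-/- mice against 6.59% and 7.55% in WT mice. Pre-B cells were 5.81% and 3.58% against 10.9% and 8.51%. Immature B cells were 4.47% and 3.88% against 6.81% and 7.31%. Mature B cells were 4.73% and 10.8% against 7.56% and 11.8%. All of these are shares of all cells, not of the summed B lineage cells. What these shares add was not tested. Over the other fits the median of all B lineage cells before the plasma stage ran from 0.00714 to 0.706. The median in pre-B cells ran from -0.0996 to 1.23. For Igkc the log2 fold change was -0.03 ± 0.21 (adjusted p = 0.997), with 8823 and 9058 UMIs against 11991 and 15615.

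**Figure D5:**
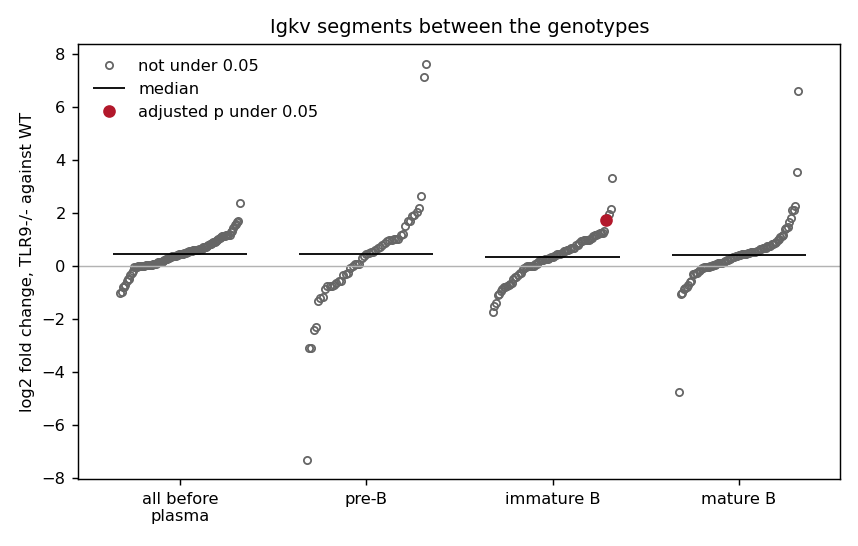
Log2 fold changes of Igkv segments between TLR9-/- and WT (vertical axis) in all B lineage cells before the plasma stage and in 3 stages, each point a segment and each bar the median. The medians are 0.46, 0.47, 0.37 and 0.42, and the single filled point is Igkv4-50 in immature B cells.

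Genes of light chain recombination and kappa transcription were followed as a list of 30. None of the 30 tested over all B lineage cells before the plasma stage differed between the genotypes by edgeR, and 3 had an unadjusted p under 0.05. Their median log2 fold change was -0.13. Rag1, a subunit of the recombinase, had 64.8 and 64.4 CPM against 85.7 and 93.6 (log2 fold change -0.47 ± 0.17, adjusted p = 0.742), and Rag2, its partner, had 42.4 and 25.3 against 47.0 and 41.4 (-0.38 ± 0.26, adjusted p = 0.899). In pre-B cells Rag1 had 210.04 and 234.2 against 222.4 and 258.7. From surrogate light chain to pre-B cells 21 of 29 list genes tested rose and 2 fell, where 22.4% of all genes tested rose and 23.4% fell. Those that rose included Rag1, Rag2 and Il7r, which define the pre-B gate. Those that fell were Xrcc5, a subunit of the Ku complex that binds DNA ends, and Dntt, the terminal transferase that adds bases to heavy chain joins, which fell by 6.42 on the log2 scale.

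Plasma cells were few, with 37 and 15 in TLR9-/- mice against 26 and 14 in WT mice, but they held 68.5% and 61.3% against 58.4% and 57.8% of the Igkv UMIs of their libraries. A further 57 and 10 against 18 and 9 cells had at least 5 Jchain UMIs but failed the gate, and they held 16075 and 18154 against 10726 and 5978 Igkv UMIs. The values that follow leave them out. The 87 assigned cells used 38 segments, of which 24 were found in 1 library, 11 in 2, 2 in 3 and 1 in all 4. The segment found in all 4 was Igkv10-96, with 2, 1, 3 and 1 cells. Most of the gated plasma cells, assigned or not, had more Igha than Ighm or Ighg UMIs: 27 and 11 in TLR9-/- mice against 16 and 8 in WT mice.

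Few cells lay behind each segment in plasma cells. Igkv6-15 had 11472 and 33708 UMIs in TLR9-/- mice and 0 in both WT libraries, from 3 and 3 cells, and it was not called (adjusted p = 0.859). Igkv8-28 had 5072 and 7283 UMIs against 0 and 0 (adjusted p = 0.274). The cell with the most Igkv UMIs held 6.86% and 16.9% of them in TLR9-/- mice against 9.30% and 18.4% in WT mice. In mature B cells Igkv6-15 was used by 3 of 395 and 38 of 837 cells against 20 of 612 and 26 of 807, so the TLR9-/- libraries lay at both ends.

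Second segments were common. Of 3981 immature and mature B cells with at least 5 Igkv UMIs, 902 or 22.7% held a second segment with at least 2 UMIs and at least 10% of the Igkv UMIs. In immature B cells the share was 23.0% and 20.1% in TLR9-/- mice against 24.2% and 17.01% in WT mice, and in mature B cells it was 24.8% and 23.4% against 22.8% and 24.2%. The genotypes overlapped in both stages. The 902 cells held 715 different pairs, none in more than 5 cells, and 22 of the cells had a pair with at least 90% identity. A pseudogene was the second segment in 3.88% of them, against 0.126% as the first segment of the 3981 cells. Cells with a second segment had a median of 1573.5 UMIs and the others 1424, and the part of free RNA and unmarked doublets was not tested.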

How the data were processed

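Bone marrow mononuclear cells of 2 TLR9-/- and 2 WT mice were profiled by 5′ single-cell sequencing, 1 library per mouse. The authors deposited raw UMI counts per gene and cell, made with Cell Ranger 3.0.1 (file header) on mm10. The submitters' processing notes also name STAR and Seurat 2.3.4. Cells with 200 to 10000 genes and at most 10% mitochondrial UMIs were kept, reading the printed limit as a fraction. The libraries kept 31210188 to 63958243 UMIs. Members, gene lists and gates were chosen with earlier results of these data known.

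UMI counts were summed per library and stage and tested two-sided with edgeR 4.0.16 (filterByExpr, TMM, quasi-likelihood, Benjamini-Hochberg over all genes, threshold 0.05) in R 4.3.3, with the library as a block between stages. DESeq2 1.42.0, no filter, stricter gates, scaling without immunoglobulin genes, deeper cells, left-out libraries and left-out doublets (Scrublet in scanpy 1.11.5) were alternatives. The edgeR script was run on simulated counts without the clumping of UMIs in few cells, so that run gives no error rate for Igkv segments. Named segments were the 5 most used per stage, all called between genotypes, the 5 largest and 5 smallest stage changes, both ends of the locus, Igkc, Rag1 and Rag2, and others were named after their values were seen. Identity was the edit distance (edlib 1.3.9.post1) over the last 280 coding bases. All 160 identifiers matched GENCODE vM21. The step from surrogate light chain cells, the genotype by stage difference and the pseudogene, locus and spread summaries were chosen after seeing the data. Nothing says that the mice were other than separate animals, and 2 per genotype limit every test. Libraries shared 112 to 185 cell barcodes in pairs.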

Additional observations from a re-analysis of the deposited data

Results flagged for a closer look

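The change of a segment from one stage to the next was compared between the genotypes by an interaction term in edgeR's fit with Benjamini-Hochberg adjustment. From pre-B to immature B cells 10 of 64 segments tested differed, where 0.576% of all genes tested did. Values are the log2 change in TLR9-/- minus that in WT, and UMIs and cells are given in the order TLR9-/- 1, TLR9-/- 2, WT 1 and WT 2.

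Igkv9-129 had 4.69 ± 0.51 (adjusted p = 1.74e-05), with 25, 0, 24 and 74 UMIs in 2, 0, 6 and 8 pre-B cells and 78, 0, 3 and 9 in 2, 0, 3 and 2 immature B cells. Its TLR9-/- UMIs all came from TLR9-/- 1. A single cell held 22.0% of its pre-B UMIs and another 43.3% of its immature UMIs. For Igkv12-98 the difference was 2.83 ± 0.43 (adjusted p = 0.000728), from 4, 8, 55 and 59 pre-B UMIs and 62, 48, 55 and 79 immature UMIs, and the pre-B UMIs lay in 4, 2, 5 and 4 cells. A single cell held 27.8% of its pre-B UMIs. Igkv14-111 had -2.51 ± 0.40 (adjusted p = 0.00167), with 108, 33, 45 and 13 UMIs in 11, 3, 8 and 5 pre-B cells and 164, 209, 423 and 392 in 13, 9, 27 and 24 immature B cells. For Igkv6-32 the difference was 2.42 ± 0.46 (adjusted p = 0.00809), from 7, 0, 50 and 56 pre-B UMIs and 134, 4, 162 and 220 immature UMIs, and the pre-B UMIs lay in 1, 0, 11 and 7 cells. Igkv4-91 had -5.56 ± 1.15 (adjusted p = 0.0204), with 20, 6, 0 and 0 UMIs in 4, 1, 0 and 0 pre-B cells and 69, 58, 40 and 46 in 3, 7, 5 and 6 immature B cells. A single cell held 50% of its pre-B UMIs.

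For Igkv6-23 the difference was -2.54 ± 0.54 (adjusted p = 0.0249), from 21, 44, 18 and 1 pre-B UMIs and 229, 165, 320 and 283 immature UMIs, and the pre-B UMIs lay in 3, 2, 6 and 1 cells. A single cell held 45.2% of its pre-B UMIs. Igkv12-44 had 1.73 ± 0.39 (adjusted p = 0.0424), with 29, 1, 81 and 49 UMIs in 13, 1, 13 and 14 pre-B cells and 224, 126, 243 and 200 in 19, 11, 18 and 17 immature B cells. For Igkv4-50 the difference was 2.28 ± 0.52 (adjusted p = 0.0427), from 8, 4, 22 and 9 pre-B UMIs and 70, 49, 34 and 23 immature UMIs, and the pre-B UMIs lay in 4, 1, 8 and 6 cells. A single cell held 9.3% of its pre-B UMIs. Igkv10-94 had 2.76 ± 0.64 (adjusted p = 0.0481), with 1, 2, 30 and 18 UMIs in 1, 2, 7 and 3 pre-B cells and 67, 36, 123 and 88 in 7, 3, 13 and 13 immature B cells. For Igkv10-95 the difference was 2.99 ± 0.70 (adjusted p = 0.04998), from 3, 10, 16 and 27 pre-B UMIs and 8, 20, 7 and 3 immature UMIs, and the pre-B UMIs lay in 3, 3, 9 and 8 cells. A single cell held 14.3% of its pre-B UMIs and another 44.7% of its immature UMIs. For Igkv14-111, Igkv6-32, Igkv12-44 and Igkv10-94 the top cell held 19.1%, 15.9%, 20% and 27.5% of the pre-B UMIs.

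From immature to mature B cells 1 of 79 segments differed, where 0.0749% of all genes did. Igkv8-18 had -7.65 ± 1.11 (adjusted p = 0.00864), with 74, 11, 13 and 0 UMIs in 2, 2, 2 and 0 immature B cells and 1, 0, 16 and 23 in 1, 0, 2 and 2 mature B cells. A single cell held 52.0% of its immature UMIs and another 50% of its mature UMIs. The differences were not run without single libraries.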

How the results depend on the processing

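The rise from pre-B to immature B cells stayed within 1.5 times of its 59 calls in all alternatives, with 55 to 58 calls when a library was left out. From surrogate light chain to pre-B cells the 27 calls became 75 with no filter on low counts, where 116 segments were tested. Between immature and mature B cells the 19 calls became 9 with DESeq2, 38 with no filter on low counts and 9 with stricter gates, and 14 to 19 when a library was left out. Between the genotypes the calls over all B lineage cells, in pre-B, immature, mature and plasma cells were 0, 0, 1, 0 and 0. DESeq2 gave 3, 2, 1, 3 and 15, no filter on low counts gave 22, 14, 18, 15 and 35, stricter gates gave 2 in pre-B and 4 in immature B cells, and only cells with at least 1000 UMIs gave 1 in mature B cells. Leaving out a library, so that 1 genotype has a single mouse, gave 0 to 35, 6 to 21, 5 to 12, 1 to 16 and 0 to 3. The cause of these changes was not tested, and the share of all genes called was not counted in the alternatives. In the list of light chain genes, 1 gene was called without filter in mature B cells and 1 in plasma cells, and leaving out a library gave 0 to 1 over all B lineage cells and 0 to 2 in mature B cells.

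With the replicate block the calls were 8, 16, 12, 7 and 0, and 1 list gene in pre-B cells. The deviations of same-numbered libraries correlated across genes with r = 0.31, 0.24, 0.20, 0.14 and 0.01. Whether the numbers mark the 2 experiments is not stated in the labels, and 2 pairs do not settle it.

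The effective number of segments with at least 5 UMIs and over 80% of the Igkv UMIs was 28.3 in pre-B, 42.3 in immature and 39.95 in mature B cells. By shares of UMIs it was 27.1, 33.4, 35.2 and 9.51 in pre-B, immature, mature and plasma cells. Leaving out a library gave 38.5 to 40.9, 45.2 to 48.0, 44.7 to 47.0 and 19.3 to 24.0.

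Signs turned for some segments. From pre-B to immature B cells Igkv8-16 became 0.0022 with scaling without immunoglobulin genes, 0.34 with stricter gates and 0.0589 without marked doublets, and ran from -0.44 to 0.51 when a library was left out. Left-out libraries gave -0.19 to 0.94 for Igkv10-95 and -0.0995 to 2.06 for Igkv9-123, and DESeq2 gave -0.69 for Igkv9-129. From immature to mature B cells they gave -2.66 to 0.0817 for Igkv8-18 and -0.0431 to 2.37 for Igkv12-38. The cause was not tested. Of the other single-segment comparisons 161 kept their side of the threshold, 20 lost it and 8 gained it.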
